A study of Mus musculus with 8 samples.

Results

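The 10 genes described here handle iron in the liver: the hepcidin genes Hamp and Hamp2, the sensors Hfe and Tfr2, the plasma carrier Trf, the uptake genes Tfrc and Slc39a14, the exporter Slc40a1 and the ferritin genes Fth1 and Ftl1. They were picked by name for their known roles, all 10 were found by gene symbol among the 16796 genes listed in the deposited tables, and all 10 were among the 13244 genes with enough counts to be tested. RNA came from whole livers of 8 mice put on a NASH diet, which brings on fatty liver with inflammation and scarring, at 2 months of age and kept on it for 20 weeks. E4bp4-LKO mice 143, 144, 145 and 179 were labelled as lacking E4bp4 (gene symbol Nfil3, a transcriptional repressor) specifically in the liver, and mice 164, 165, 166 and 167 were WT. Every mouse of both groups had the NASH diet. No label or note used here gives the Cre line, the strain, the sex or the litters, though Y-linked genes were expressed in all 8 livers. The p values measure the spread between these 8 livers.

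Hepatocytes set the iron balance of the whole body by secreting hepcidin, a peptide hormone that binds the iron exporter ferroportin and sends it for degradation. Iron-loaded transferrin is sensed at the hepatocyte surface by HFE and transferrin receptor 2, which act together with bone morphogenetic protein (BMP) signals on the hepcidin promoter, while interleukin 6 acts on it through STAT3. Inside the cell, iron regulatory proteins bind hairpins in ferritin, ferroportin and transferrin receptor mRNAs, and so adjust storage, export and uptake after transcription.

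The sequences that carry these controls differ among the 10 genes. In mice hepcidin is encoded by a duplicated pair on chromosome 7, and only Hamp is known to act as the iron hormone, whereas mice made to overexpress Hamp2 did not develop the iron deficiency seen with Hamp. The matching stretches of the promoters are shown to compare the copies, and whether they bear on the levels of the pair was not tested. They lie on the minus strand at chr7:30944040-30944159 for Hamp and chr7:30924189-30924308 for Hamp2, from RefSeq on GRCm38.p6. Capitals mark the place of the BMP response element core GGCGCC and of the STAT site TTCNNNGAA in Hamp, and the same positions in Hamp2.
Hamp: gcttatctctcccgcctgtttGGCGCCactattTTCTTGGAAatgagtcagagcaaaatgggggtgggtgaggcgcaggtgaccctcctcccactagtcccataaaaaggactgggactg
Hamp2: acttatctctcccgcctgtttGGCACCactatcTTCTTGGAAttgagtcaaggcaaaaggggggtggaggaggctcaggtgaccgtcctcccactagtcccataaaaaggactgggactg

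The stretches were 120 bases long and 90.8% identical, with 11 differences. Counted from 1 at the 5′ end with the base of Hamp first, G25A fell inside the BMP element, so Hamp2 did not hold GGCGCC, while both genes held the STAT site. The capitalised elements do not overlap. Both strands of the 300 bases around each gene start in RefSeq were searched for these letters and for the D-box forms TTATGTAA and TTACGTAA, to which E4BP4 binds. A window was present for 7 of the 10 genes, that is, without Trf, Slc40a1 and Slc39a14. GGCGCC stood in the windows of Hamp and Tfrc and in 11.9% of all 32851 windows, and TTCNNNGAA in those of Hamp and Hamp2 and in 8.3% of all. The D-box form TTATGTAA was in 0 of the 7 genes' windows and 0.938% of all, and TTACGTAA in 0 of 7 and 0.119% of all. A match of letters is not evidence of binding.

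Iron-responsive elements, the hairpins read by iron regulatory proteins, are shown for the genes that hold them because these mRNAs are adjusted by iron without any change in transcription. They were searched in GENCODE M21 transcripts (GRCm38) as a C, 5 bases, the loop CAGTGN and 5 bases that pair with the first 5, G with T allowed. Hairpins that depart from this pattern are missed by the search. Capitals mark the loop, and each element lay in a single exon. The places are chr19:9982738-9982754 (plus strand) in the 5′ UTR of Fth1, chr7:45459785-45459801 (minus strand) in the 5′ UTR of Ftl1 and chr1:45925471-45925487 (minus strand) in the 5′ UTR of Slc40a1. The 3′ UTR of Tfrc held 4 matches, the first at chr16:32631225-32631241 and the last at chr16:32631716-32631732 (plus strand).
Fth1: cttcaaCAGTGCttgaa
Ftl1: cttcaaCAGTGTttgaa
Slc40a1: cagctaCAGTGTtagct
Tfrc, first: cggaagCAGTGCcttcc
Tfrc, last: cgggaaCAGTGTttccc

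Protein binding at the 3′ elements of Tfrc stabilises its mRNA when iron is scarce, and the 5′ elements of the ferritins and ferroportin restrain translation. None of the annotated coding transcripts of Hamp, Hamp2, Hfe, Tfr2, Trf or Slc39a14 held a match, and 294 of 21901 protein-coding genes did (1.34%).

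Levels below are estimated counts scaled to a common library size by TMM (CPM) unless FPKM is named. FPKM divides by transcript length and by the library total, without TMM. Libraries held 23805540 to 32290265 estimated counts, so that 3 counts, taken as the floor, stood for 0.0929 to 0.126 CPM. This floor covers counting error only. Nfil3 fell to 3.33, 6.22, 6.14 and 3.35 CPM in E4bp4-LKO livers 143, 144, 145 and 179, against 11.4, 8.78, 12.1 and 16.5 CPM in WT livers 164, 165, 166 and 167 (log2 fold change -1.35, SE 0.25, edgeR quasi-likelihood test with Benjamini-Hochberg adjustment over all genes, adjusted p = 0.0121). WT livers 164 and 165 lay at the far end of the first principal component, and their TMM factors of 1.159 and 1.086 exceeded those of the remaining libraries (0.9406 to 1.002). Where a call of a gene named below was lost without these livers, the value without them stands beside it. Fractional estimated counts, which arise when reads are shared, stood for Hamp and Hamp2 in 7 of 8 libraries, for Slc39a14 in all 8 and for Tfrc in 1, while both ferritins had whole counts throughout. Sums of hepatocyte markers ran from 81895 to 99961 CPM in E4bp4-LKO livers and from 62422 to 83085 CPM in WT livers. Estimates were above 0 for 7 of 8 genes and below 0 for 1, Tat (-0.35), with a median of 0.27. At an unadjusted p under 0.05 in edgeR there were 5 of 8, against 28.3% of all genes. After adjustment 7 did not pass and 1 of 8, Serpina1a, rose, where 4.36% of all genes did. Its call was lost without WT 165 or E4bp4-LKO 144, 145 or 179 (adjusted p up to 0.0885), and without WT 164 and 165 together (0.40, adjusted p = 0.0714). In whole liver, fewer cells of a type and less RNA per cell cannot be told apart.

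None of the 10 genes passed an adjusted p of 0.05 in edgeR, where 10.8% of all tested genes did (4.36% higher and 6.48% lower in E4bp4-LKO livers). At an unadjusted p under 0.05 there were 4 of 10 (Hamp, Hamp2, Tfr2 and Trf), against 28.3% of all genes. DESeq2 called 3 of 10 (Hamp and Tfr2 higher, Trf lower), where it called 15.8% of all genes (6.86% higher and 8.89% lower). In CPM, the values of the groups did not overlap for 3 of 10 genes, Hamp2, Tfr2 and Trf, against 18.5% of all genes (8.82% higher and 9.69% lower). The median log2 fold change over the 10 was -0.09, and over all tested genes 0.01.

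**Figure D1:**
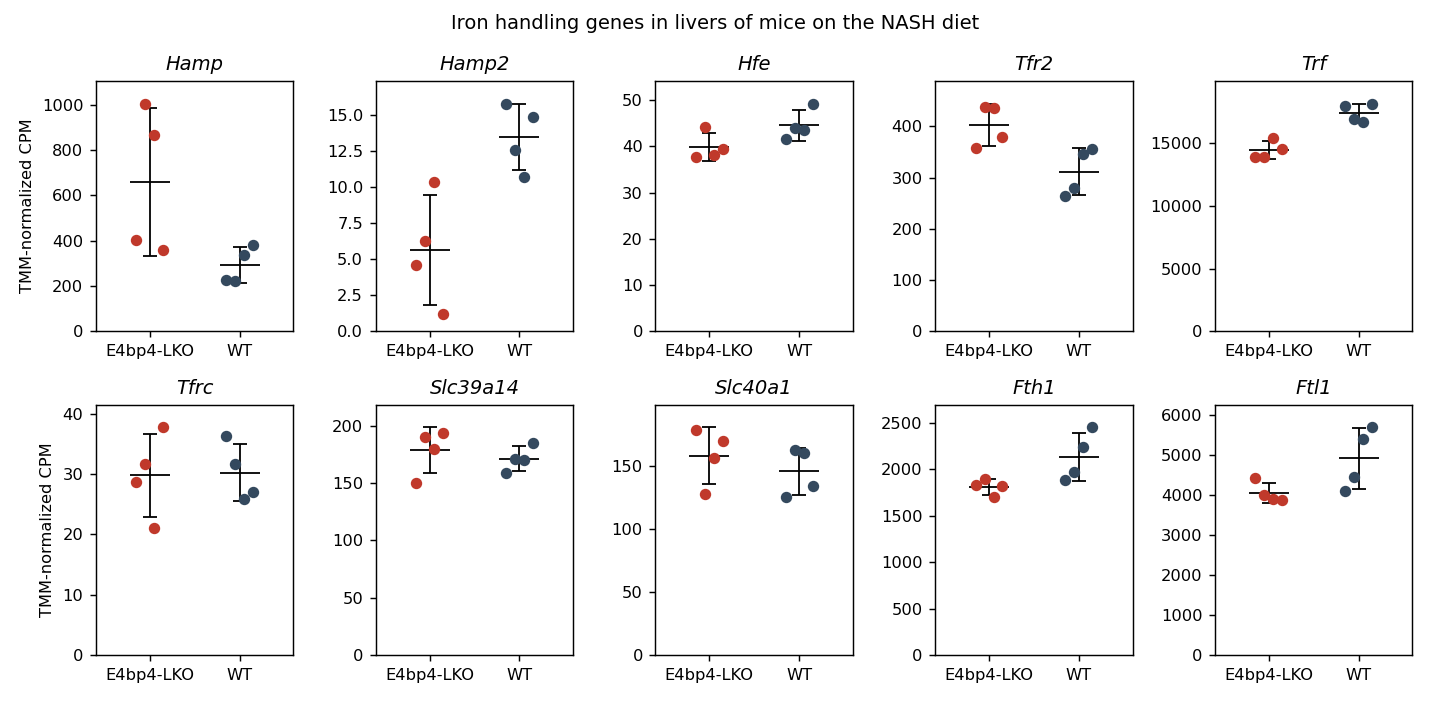
Levels of the 10 iron handling genes in each liver, in TMM-normalized CPM on axes that start at 0, with E4bp4-LKO mice left (143, 144, 145 and 179 from left to right) and WT mice right (164 to 167). Points are mice and bars show the mean and SD of 4, and Hamp2, Tfr2 and Trf are the genes whose groups do not touch.

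Hamp, which encodes the iron hormone itself, had the largest positive estimate of the 10. It stood at 402, 1004, 868 and 359 CPM in E4bp4-LKO livers 143, 144, 145 and 179, against 224, 223, 336 and 380 CPM in WT livers 164, 165, 166 and 167. Livers 144 and 145 lay far above every WT liver, whereas liver 179 was below WT liver 167, so the groups overlapped. The means were 658 ± 326 CPM in E4bp4-LKO livers and 291 ± 79.5 CPM in WT livers (SD, n = 4 each), a 2.26-fold difference (log2 fold change 1.18, SE 0.36). This missed the threshold in edgeR (adjusted p = 0.0693) and passed in DESeq2 (adjusted p = 0.0296). It passed in edgeR without E4bp4-LKO liver 143 (1.36, adjusted p = 0.0475) or 179 (1.38, adjusted p = 0.0442), whereas without WT livers 164 and 165 the estimate was 0.88 (adjusted p = 0.459).

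Hamp2, the duplicated copy, had an estimate of the opposite sign and a far lower level. It stood at 4.63, 6.3, 10.4 and 1.23 CPM in E4bp4-LKO livers, against 15.8, 12.6, 10.7 and 14.9 CPM in WT livers, in the same order of mice. All E4bp4-LKO livers were below all WT livers, though liver 145 and WT liver 166 were 10.4 and 10.7 CPM. Liver 179, the lowest, had 27.61 estimated counts, against 304.0 to 546.35 in WT livers. The means were 5.64 ± 3.81 CPM in E4bp4-LKO livers and 13.5 ± 2.33 CPM in WT livers (SD, n = 4 each), with a log2 fold change of -1.24 (SE 0.46) that did not pass in edgeR (adjusted p = 0.121) or DESeq2 (adjusted p = 0.122). Without E4bp4-LKO liver 145 the difference was -1.71 and passed in edgeR (adjusted p = 0.0498), and without WT livers 164 and 165 it was -1.16 (adjusted p = 0.443).

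The proportion of the copies combines the estimates for Hamp and Hamp2, which have opposite signs, so it is no separate evidence of a difference. The FPKM of Hamp2 relative to that of Hamp was 0.0107, 0.00582, 0.0111 and 0.00319 in E4bp4-LKO livers 143, 144, 145 and 179, against 0.0653, 0.0522, 0.0295 and 0.0365 in WT livers 164, 165, 166 and 167. The highest E4bp4-LKO ratio was below the lowest WT ratio. Means were 0.00771 ± 0.00386 in E4bp4-LKO livers and 0.0459 ± 0.0161 in WT livers (SD, n = 4 each). The log2 difference was -2.67, lower in 4 of 4 E4bp4-LKO livers, with p = 0.0286 in an exact two-sided permutation test, the smallest that 70 arrangements allow. It did not pass after Benjamini-Hochberg adjustment over the 3 ratios compared (adjusted p = 0.0857). Leaving out each mouse in turn gave -2.91 to -2.31.

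The hepcidin transcripts are 410 bases (Hamp) and 420 bases (Hamp2) long and 92.4% identical, with up to 87 bases in a row the same, so reads can be assigned to either copy. Their sum does not depend on that assignment. It was 406, 1010.4, 878 and 360.4 CPM in E4bp4-LKO livers, against 240.0, 236, 346 and 395 CPM in WT livers, in the same order. Liver 179 was again below WT liver 167. With Hamp and Hamp2 summed the estimate was close to that of Hamp alone (log2 fold change 1.13, SE 0.35, edgeR adjusted p = 0.0762, DESeq2 adjusted p = 0.0369). In edgeR the sum passed without E4bp4-LKO liver 179 (1.33, adjusted p = 0.0469) and did not pass without any other single mouse (0.85 to 1.30, adjusted p up to 0.227) or without WT livers 164 and 165 (0.85, adjusted p = 0.479).

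**Figure D2:**
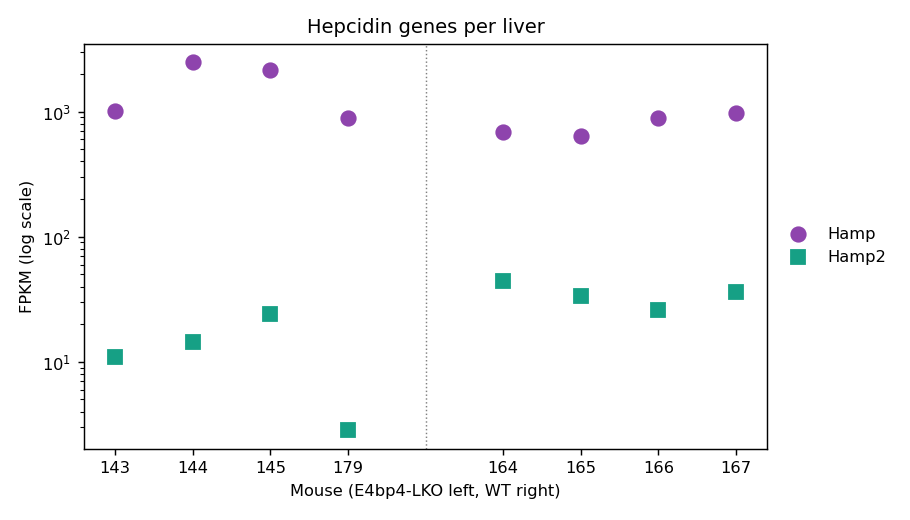
FPKM of Hamp (circles) and Hamp2 (squares) in each liver on a log axis, with E4bp4-LKO mice left and WT mice right. The gap between the copies is wider in each of the 4 E4bp4-LKO livers, where Hamp2 was 2.83 to 24.0 FPKM, than in the 4 WT livers, where it was 26 to 44.6 FPKM.

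A gene outside iron handling also separated the groups. Nnt, which encodes a mitochondrial transhydrogenase and carries a deletion in the C57BL/6J substrain, was chosen after its values were seen. It rose to 259, 292, 276 and 311 CPM in E4bp4-LKO livers, against 82, 89.7, 86 and 89.6 CPM in WT livers (log2 fold change 1.71, SE 0.08, edgeR adjusted p = 1.89e-06). The genetic background and the loss of E4bp4 cannot be told apart as sources of the difference in Hamp2 or any other gene here.

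The genes whose levels followed Hamp most closely over the 8 livers, by the root mean square difference of centred log2 CPM among 10809 genes, were Fzd8 (0.172), Igfbp2 (0.252) and Sco2 (0.26). Since they were picked for following Hamp, the order of the livers and the difference between the groups come with that choice, and they are given without a test. Fzd8, which encodes a Wnt receptor, was 16.7, 35.8, 27.1 and 13.8 CPM in E4bp4-LKO livers, against 9.79, 9.06, 11.6 and 11.9 CPM in WT livers. Igfbp2, which encodes an IGF-binding protein, was 275, 548, 457 and 328 CPM in E4bp4-LKO livers, against 139, 113, 218 and 238 CPM in WT livers. Sco2 is needed for cytochrome c oxidase assembly and averaged 48.4 ± 14.0 CPM in E4bp4-LKO livers and 27.8 ± 9.0 CPM in WT livers (SD, n = 4 each).

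Closest to Hamp2 were Atp6v0d2 (0.48), a proton pump subunit gene of macrophages and osteoclasts, Plac9a (0.544) and Fam198a (0.563), again as a description that the choice fixes. Atp6v0d2 was 3.26, 3.85, 4.92 and 1.65 CPM in E4bp4-LKO livers, against 14.1, 14.0, 8.73 and 7.69 CPM in WT livers. The distances to Hamp2 were larger than those to Hamp.

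The sensors lie upstream of hepcidin. Tfr2, the receptor by which hepatocytes sense iron-loaded transferrin, was at 358, 439, 437 and 380.3 CPM in E4bp4-LKO livers 143, 144, 145 and 179, against 265, 279, 347 and 356 CPM in WT livers 164, 165, 166 and 167. No values overlapped, but E4bp4-LKO liver 143 and WT liver 167 were 358 and 356 CPM. Means were 403 ± 40.8 CPM in E4bp4-LKO livers and 312 ± 46.1 CPM in WT livers (SD, n = 4 each), a 1.29-fold difference (log2 fold change 0.37, SE 0.12). It missed the threshold in edgeR (adjusted p = 0.0701) and passed in DESeq2 (adjusted p = 0.0197). It passed in edgeR without WT liver 167 (0.44, adjusted p = 0.0446), and without WT livers 164 and 165 it was 0.21 (adjusted p = 0.319).

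Hfe, the membrane protein gene mutated in classical hereditary haemochromatosis, was at 37.7, 44.1, 38.2 and 39.4 CPM in E4bp4-LKO livers, against 41.5, 43.9, 43.5 and 49.2 CPM in WT livers. Liver 144 lay within the WT range. The means were 39.8 ± 2.93 CPM in E4bp4-LKO livers and 44.5 ± 3.32 CPM in WT livers (SD, n = 4 each), and the difference of -0.16 (SE 0.08) did not pass (edgeR adjusted p = 0.205, DESeq2 adjusted p = 0.276).

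Among the genes that carry iron to cells, Trf was the most abundant of the 10. It encodes transferrin, which hepatocytes secrete into plasma. Trf was at 13941, 13903, 15429 and 14529 CPM in E4bp4-LKO livers 143, 144, 145 and 179, against 17954, 16909, 16688 and 18133 CPM in WT livers 164, 165, 166 and 167. All E4bp4-LKO livers were below all WT livers, and the spread within each group was small. Means were 14451 ± 713 CPM in E4bp4-LKO livers and 17421 ± 728 CPM in WT livers (SD, n = 4 each). The log2 fold change of -0.27 (SE 0.11) did not pass in edgeR (adjusted p = 0.149) and passed in DESeq2 (-0.26, adjusted p = 0.000785), and without WT livers 164 and 165 edgeR gave -0.26 (adjusted p = 0.19).

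Tfrc, the receptor through which most cells take up transferrin iron, was at 28.7, 31.6, 21.1 and 37.7 CPM in E4bp4-LKO livers, against 36.3, 31.7, 25.9 and 27 CPM in WT livers. The groups overlapped throughout (log2 fold change -0.02, SE 0.17, edgeR adjusted p = 0.946), and the sign turned without WT liver 164 (0.08), WT liver 165 (0.00) or E4bp4-LKO liver 145 (0.11). The FPKM of Tfrc relative to that of Tfr2 was 0.0541 ± 0.0152 in E4bp4-LKO livers and 0.0723 ± 0.0219 in WT livers (SD, n = 4 each; exact permutation p = 0.229, adjusted 0.343). Slc39a14, the ZIP14 importer of iron not bound to transferrin, was at 149.8, 190.2, 179.5 and 194 CPM in E4bp4-LKO livers, against 159, 170.5, 170.4 and 185 CPM in WT livers. Its groups overlapped too (0.06, SE 0.09, edgeR adjusted p = 0.737), and its sign turned to -0.10 on library totals.

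Slc40a1 encodes ferroportin, the exporter that hepcidin removes. It was at 179, 128, 157 and 170.4 CPM in E4bp4-LKO livers, against 126, 163, 161 and 134 CPM in WT livers. The groups overlapped, and the livers highest in Hamp, 144 and 145, were the lowest of the E4bp4-LKO group in Slc40a1. The log2 fold change was 0.12 (SE 0.12, edgeR adjusted p = 0.562) and turned to -0.03 on library totals.

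Ferritin heavy and light chains form the shell in which cells store iron. Fth1, whose chain oxidises iron, was at 1834, 1901, 1697 and 1821 CPM in E4bp4-LKO livers 143, 144, 145 and 179, against 1884, 1971, 2237 and 2451 CPM in WT livers 164, 165, 166 and 167. Ftl1, whose chain promotes mineral formation, was at 4421, 4003, 3901 and 3869.8 CPM in E4bp4-LKO livers, against 4091, 4444, 5402 and 5678 CPM in WT livers. For both genes WT livers 166 and 167 were the highest of all, and in CPM WT livers 164 and 165 were near the E4bp4-LKO values. The log2 fold changes were -0.24 for Fth1 (SE 0.11) and -0.28 for Ftl1 (SE 0.13), and neither passed in edgeR (adjusted p = 0.195 for each) or DESeq2 (adjusted p = 0.0935 and 0.0957). Without WT livers 164 and 165 Ftl1 passed in edgeR (-0.45, adjusted p = 0.0406), as the only one of the 10 genes, and Fth1 did not (-0.36, adjusted p = 0.0665). In that fit 2.89% of all genes were called, with 1.53% of all genes lower.

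No difference between the groups was detected in the proportion of the chains. The FPKM of Ftl1 relative to that of Fth1 was 2.3, 2.01, 2.19 and 2.03 in E4bp4-LKO livers, against 2.07, 2.15, 2.3 and 2.21 in WT livers. Means were 2.13 ± 0.139 in E4bp4-LKO livers and 2.18 ± 0.0977 in WT livers (SD, n = 4 each; exact permutation p = 0.486, adjusted 0.486).

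Which of the 10 genes passed depended on the scaling. On library totals without TMM, the median over all genes shifted by -0.159 on the log2 scale, and 4 of 10 genes were called lower in E4bp4-LKO livers by edgeR, where 12.5% of all genes were and 14.7% were called in either direction. They were Trf (-0.43, adjusted p = 0.015), Fth1 (-0.39, adjusted p = 0.0117), Ftl1 (-0.42, adjusted p = 0.0153) and Hfe (-0.31, adjusted p = 0.0219). Relative to the shift these were -0.27, -0.23, -0.26 and -0.15, close to the TMM values. The same 4 genes passed with limma on log2(FPKM + 1), where the median shifted by -0.146, 13.0% of all genes were called lower and 15.4% in either direction. The share of lower among all called genes was 59.7% with TMM, 85.1% on library totals and 84.5% on log2(FPKM + 1). Hamp2 kept a negative estimate, and Hamp and Tfr2 positive ones, on each of these scales. Which genes had groups that did not overlap changed too. In FPKM the groups of Tfr2 overlapped (lowest E4bp4-LKO 95.8, highest WT 97.5). Those of Fth1 (highest E4bp4-LKO 1936, lowest WT 2319), Ftl1 (4396 and 4899.8) and Hfe (24.1 and 25.3) did not, nor did those of Hamp2 and Trf. The share of all genes that did not overlap in FPKM was not computed. Without that share, the FPKM overlaps are not a result about the 10 genes.

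**Figure D3:**
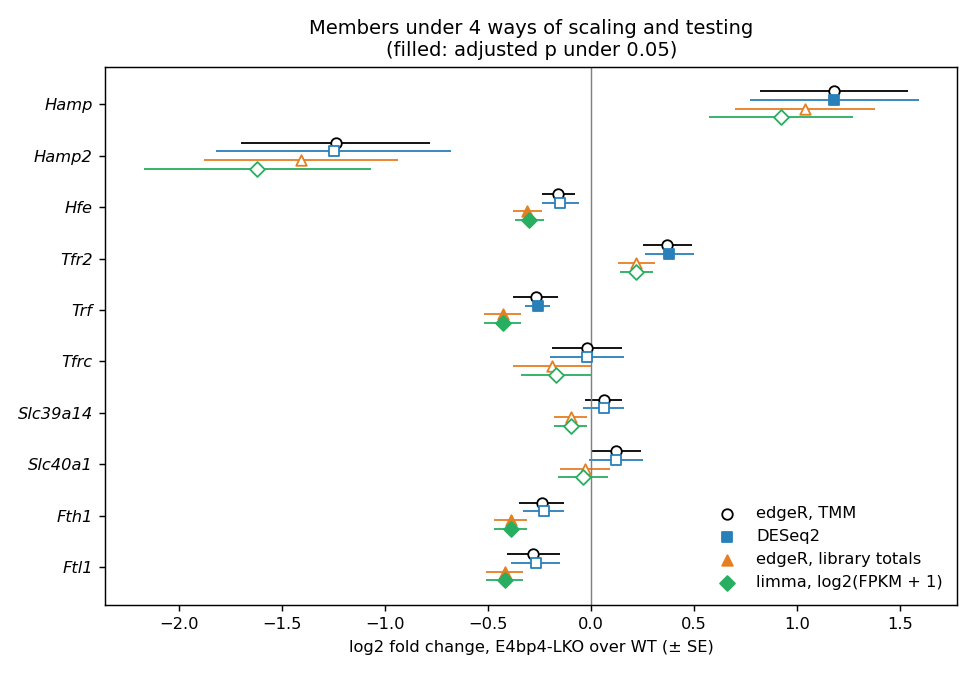
Log2 fold change of E4bp4-LKO over WT with its SE for the 10 genes, under edgeR with TMM, DESeq2, edgeR on library totals and limma on log2(FPKM + 1), with filled symbols for an adjusted p under 0.05. No symbol of edgeR with TMM is filled, DESeq2 fills Hamp, Tfr2 and Trf, and the other pair fill Hfe, Trf, Fth1 and Ftl1.

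Per transcript length, mean FPKM over the 8 livers ordered the genes as Trf (6863), Ftl1 (4638), Fth1 (2146), Hamp (1215), Tfr2 (98.6), Slc40a1 (44.7), Slc39a14 (35.1), Hfe (24.6), Hamp2 (24.0) and Tfrc (6.07). Trf was above Ftl1, Ftl1 above Fth1, Hamp above Tfr2, Tfr2 above Slc40a1 and Slc39a14 above Hfe in all 8 livers. Neighbours that were not separated were Fth1 and Hamp, with Fth1 higher in 6 of 8 livers, and Hfe and Hamp2, with Hfe higher in 3 of 8. Slc40a1 was above Slc39a14, and Hamp2 above Tfrc, in 7 of 8. E4bp4-LKO livers 144 and 145 were those in which Hamp exceeded Fth1: Hamp was at 2479 and 2155 FPKM there, and Fth1 at 1936 and 1738 FPKM.

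The route by which BMP and SMAD proteins act on hepcidin had 1 of 19 tested genes lower, 0 higher and 18 that did not pass, with a median log2 fold change of 0.12. The share called was 5.26%, against 10.8% of all genes. Bmp6 and Bmp2, the endothelial ligands that induce hepcidin, differed by 0.13 (edgeR adjusted p = 0.576) and 0.20 (edgeR adjusted p = 0.35). The co-receptor hemojuvelin (listed as Hfe2) differed by 0.04 (edgeR adjusted p = 0.867), and Tmprss6, the protease that cleaves it, by 0.21 (edgeR adjusted p = 0.225). Fkbp1a, whose product FKBP12 holds BMP type I receptors inactive, fell to 96.2, 87.1, 79.9 and 103 CPM in E4bp4-LKO livers, against 129.8, 129, 114 and 109 CPM in WT livers (-0.40, SE 0.10, edgeR adjusted p = 0.0268). Its call was lost without WT 164 (-0.36, adjusted p = 0.0524), WT 165 (-0.36, adjusted p = 0.0814), E4bp4-LKO 144 (-0.37, adjusted p = 0.0831) or E4bp4-LKO 145 (-0.33, adjusted p = 0.0687), and without WT 164 and 165 together (-0.28, adjusted p = 0.176). Erfe, the erythroid hormone that lowers hepcidin, was too low to be tested.

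Targets of the BMP route varied among the E4bp4-LKO livers. Id1 was at 7.99, 7.64, 17 and 4.06 CPM in E4bp4-LKO livers 143, 144, 145 and 179, against 9.97, 8.24, 7.68 and 9.2 CPM in WT livers 164 to 167 (0.07, SE 0.35, edgeR adjusted p = 0.925). The feedback inhibitor Smad7 was at 11.1, 16.4, 23.1 and 9.86 CPM in E4bp4-LKO livers, against 14.4, 8.2, 9.12 and 14.9 CPM in WT livers (0.38, SE 0.30, edgeR adjusted p = 0.45). Liver 179 was the lowest E4bp4-LKO liver in Id1 and Smad7, as in Hamp and Hamp2. Liver 144, the highest in Hamp, was below every WT liver in Id1 (7.64 CPM, against 7.68 to 9.97 CPM). Chosen after their values were seen, the BMP targets Atoh8 (23.1, 37.4, 40.3 and 22.5 CPM in E4bp4-LKO livers, against 26.5, 20.9, 23.8 and 33 CPM in WT livers) and Smad6 (10.6, 14.3, 12.7 and 10.2 CPM in E4bp4-LKO livers, against 11.5, 9.03, 9.4 and 9.13 CPM in WT livers) were also highest in livers 144 and 145. Neither passed (edgeR adjusted p = 0.507 for Atoh8 and 0.169 for Smad6). Because of how Atoh8 and Smad6 were chosen, the order of the livers in them is no separate evidence.

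On the interleukin 6 and STAT3 route, 1 of 13 tested genes was higher, 1 was lower and 11 did not pass, with a median of 0.05. In all, 15.4% of this list was called, against 10.8% of all genes. Lifr, the receptor of leukemia inhibitory factor, rose to 92, 117, 105 and 117 CPM in E4bp4-LKO livers, against 62.1, 68, 72 and 79.9 CPM in WT livers (0.62, SE 0.10, edgeR adjusted p = 0.006). Osmr, the oncostatin M receptor, fell to 5.77, 4.05, 5.44 and 4.91 CPM in E4bp4-LKO livers, against 13.5, 10.9, 6.77 and 9.27 CPM in WT livers (-1.01, SE 0.20, edgeR adjusted p = 0.0132; -0.66 and adjusted p = 0.0817 without WT livers 164 and 165). Both receptors pair with gp130, and neither group overlapped the other. Il6 itself had 0 to 2 counts per library, below the floor. Socs3, a STAT3 target, was at 5.44, 14.7, 12.7 and 4.95 CPM in E4bp4-LKO livers, against 8.38, 8.72, 8.1 and 8.71 CPM in WT livers, so that E4bp4-LKO livers lay on both sides of the narrow WT range (0.16, SE 0.32, edgeR adjusted p = 0.794).

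Of 21 tested genes of cellular iron uptake, storage and sensing, 2 rose, 4 fell and 15 did not pass, with a median of 0.01. The share called was 28.6%, against 10.8% of all genes. Meltf, which encodes melanotransferrin, fell to 0.407, 0.198, 0.331 and 0.0892 CPM in E4bp4-LKO livers, against 1.36, 2.14, 1.54 and 1.19 CPM in WT livers (-2.56, SE 0.37, edgeR adjusted p = 0.00371), and liver 179 was below its floor of 0.126 CPM. Lcn2, whose product binds iron-carrying siderophores and is induced in inflammation, fell to 76.4, 45.3, 60.9 and 53 CPM in E4bp4-LKO livers, against 273, 192, 155 and 139 CPM in WT livers (-1.69, SE 0.23, edgeR adjusted p = 0.0044). The metalloreductase gene Steap4 fell to 231, 214, 209 and 199.9 CPM in E4bp4-LKO livers, against 303, 301, 281 and 291 CPM in WT livers (-0.46, SE 0.08, edgeR adjusted p = 0.00632). In each of these genes every E4bp4-LKO liver was below every WT liver.

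Ireb2, which encodes iron regulatory protein 2, a reader of the hairpins shown above, rose to 106, 94.6, 117 and 115 CPM in E4bp4-LKO livers, against 72.2, 76.4, 83.5 and 80.2 CPM in WT livers (0.47, SE 0.08, edgeR adjusted p = 0.0086; 0.41 and adjusted p = 0.0517 without WT livers 164 and 165). The protein of Ireb2 is controlled mainly by degradation, which RNA levels do not show. Cp, the plasma ferroxidase ceruloplasmin, fell to 1276, 1356, 1386 and 1390.1 CPM in E4bp4-LKO livers, against 1884, 1828, 1635 and 1626 CPM in WT livers (-0.37, SE 0.10, edgeR adjusted p = 0.0389). Its call was lost in 7 of the 8 fits without 1 mouse, all but that without WT 167 (-0.39 to -0.33, adjusted p up to 0.118), and without WT livers 164 and 165 (-0.27, adjusted p = 0.127). Slc25a37, the mitochondrial iron importer mitoferrin 1, was chosen with its values known. It rose to 70.2, 67.3, 70.6 and 67.2 CPM in E4bp4-LKO livers, against 49.4, 57.1, 59.3 and 53.3 CPM in WT livers (0.33, SE 0.07, edgeR adjusted p = 0.0183, but 0.18 and adjusted p = 0.118 on library totals, and 0.29 and adjusted p = 0.0779 without WT livers 164 and 165). Cybrd1 and Ltf were too low to be tested, and Ftmt was not analysed here.

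**Figure D4:**
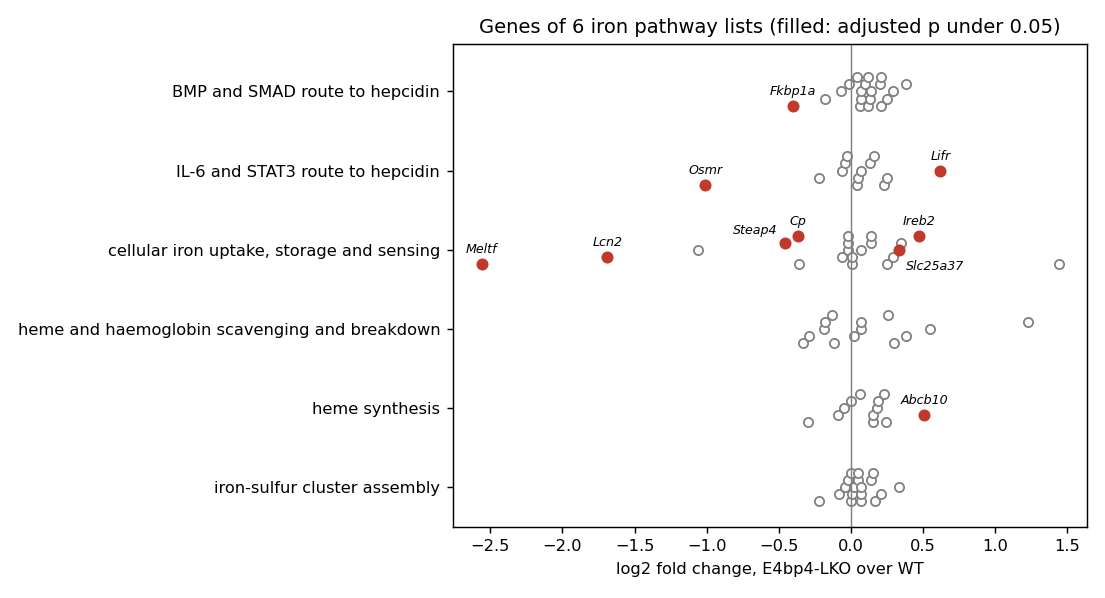
Log2 fold change of E4bp4-LKO over WT for each tested gene of 6 lists around iron handling, with filled points for an adjusted p under 0.05 in edgeR. The uptake, storage and sensing list holds 6 of the 10 filled points, and the BMP and SMAD list lies mostly above 0 with its filled point, Fkbp1a, below.

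Heme scavenging and breakdown had 0 of 14 genes called in edgeR, where 10.8% of all genes were, with a median of 0.04. At an unadjusted p under 0.05 there were 5 of 14, against 28.3% of all genes, and DESeq2 called 4 of 14, against 15.8% of all genes. The haptoglobin gene Hp (-0.29, edgeR adjusted p = 0.0831) and the hemopexin gene Hpx (-0.19, edgeR adjusted p = 0.267) did not pass. Both were lower in every E4bp4-LKO liver than in any WT liver, as were 9.69% of all genes. Hmox1, which frees iron from heme, was at 76.5, 41.5, 57 and 51 CPM in E4bp4-LKO livers, against 63.5, 63.5, 63.7 and 54.6 CPM in WT livers (-0.12, SE 0.16, edgeR adjusted p = 0.672; 0.01 without E4bp4-LKO liver 144). Lrp1, a receptor of heme bound to hemopexin, was chosen after its values were seen and was highest in livers 144 and 145: it was at 651, 1183, 1198 and 939.7 CPM in E4bp4-LKO livers, against 739, 633, 659 and 682 CPM in WT livers (0.55, SE 0.17, edgeR adjusted p = 0.065, DESeq2 adjusted p = 0.0114; 0.71 and edgeR adjusted p = 0.00879 without E4bp4-LKO liver 143). Heme synthesis had 1 of 12 genes higher, 0 lower (8.33% called, against 10.8% of all genes) and a median of 0.15. That gene, the mitochondrial transporter Abcb10, rose to 34.2, 39.2, 35.2 and 40.1 CPM in E4bp4-LKO livers, against 27.8, 23.7, 27.2 and 25.7 CPM in WT livers (0.51, SE 0.08, edgeR adjusted p = 0.00537). Its call was lost with limma on log2(FPKM + 1) without a filter (0.31, adjusted p = 0.0596) and on TPM (0.29, adjusted p = 0.0582), where the 1 call of the list was a lower gene. Iron-sulfur cluster assembly had 0 of 18 genes called in edgeR, 1 at an unadjusted p under 0.05, and a median of 0.05.

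Markers of other liver cell types moved with the groups as well, and their part in the iron gene results was not tested. Of macrophage and Kupffer cell markers, 3 of 10 (C1qa, Cd5l and Cd68) were lower and none passed as higher, where 6.48% of all genes were lower. The 10 markers summed to 594 to 825 CPM in E4bp4-LKO livers, against 796 to 1072 CPM in WT livers. Estimates were below 0 for 8 of the 10 and above 0 for 2, Marco (1.76, edgeR adjusted p = 0.173) and Timd4 (1.16, edgeR adjusted p = 0.0809). Timd4 was higher in every E4bp4-LKO liver than in any WT liver. Of stellate cell markers, 4 of 9 (Dcn, Col3a1, Lrat and Colec11) were lower, with sums of 687 to 886 CPM in E4bp4-LKO livers and 944 to 1515 CPM in WT livers. Cholangiocyte markers summed to 77.7 to 104 CPM in E4bp4-LKO livers and 191 to 471 CPM in WT livers, with 1 of 5 lower (Spp1). Spp1 made up most of these sums, at 69.3 to 93.5 CPM in E4bp4-LKO livers and 177 to 437 CPM in WT livers. Krt7, Krt19, Epcam and Sox9 had estimates below 0, overlapped between the groups and did not pass (edgeR adjusted p = 0.0838 to 0.156). Dividing cell markers summed to 14.7 to 26.7 CPM in E4bp4-LKO livers and 30.5 to 67.4 CPM in WT livers, with 4 of 8 lower (Cdk1, Top2a, Ccnb1 and Ccna2).

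Many of these marker calls depended on single livers. With each mouse left out in turn, C1qa, Cd5l, Dcn and Spp1 kept their calls in all 8 fits. The call was lost in 7 of 8 fits for Colec11 (adjusted p up to 0.119, kept without E4bp4-LKO 145), and in 5 of 8 for Lrat (dropping E4bp4-LKO 144, 145 or 179, or WT 164 or 165, adjusted p at most 0.106) and for Ccna2 (dropping the same mice, at most 0.129). It was lost in 4 of 8 for Col3a1 (dropping E4bp4-LKO 143, 144 or 179, or WT 165, at most 0.0746) and for Top2a (dropping E4bp4-LKO 144, 145 or 179, or WT 165, at most 0.0638). It was lost in 3 of 8 for Cd68 (dropping E4bp4-LKO 144 or 145, or WT 165, at most 0.0676) and for Ccnb1 (dropping E4bp4-LKO 144 or 179, or WT 165, at most 0.0798), and in 1 for Cdk1 (without E4bp4-LKO 144, 0.0675). Without WT 164 and 165 together, C1qa (-0.43, adjusted p = 0.0277) and Spp1 (-1.10, adjusted p = 0.000923) kept their calls, whereas Cd5l, Cd68, Dcn, Col3a1, Lrat, Colec11, Cdk1, Top2a, Ccnb1 and Ccna2 lost theirs (edgeR adjusted p = 0.0521 for Dcn to 0.286 for Ccna2).

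Sinusoidal endothelial markers, from the cells that make BMP ligands, had 0 of 8 called in edgeR, against 10.8% of all genes. At an unadjusted p under 0.05 there was 1 of 8, against 28.3% of all genes. Their sums were 278 to 395 CPM in E4bp4-LKO livers and 280.5 to 315 CPM in WT livers. Erythroid markers, which report blood left in the tissue, had 1 of 8 higher (Alas2, 0.51, edgeR adjusted p = 0.0355), against 4.36% of all genes. Their estimates were above 0 for 2 of 8 and below 0 for 6. The sums were broad, at 499.8 to 3605 CPM in E4bp4-LKO livers and 954 to 3811 CPM in WT livers. The call of Alas2 was lost without WT 165 or 166 or E4bp4-LKO 143 or 179 (adjusted p up to 0.091), without WT 164 and 165 together (0.46, adjusted p = 0.118) and on library totals (0.35, adjusted p = 0.115), FPKM and TPM. T and NK cell markers had 0 of 5 called in edgeR, against 10.8% of all genes, with 1 at an unadjusted p under 0.05. Their sums were 4.62 to 6.86 CPM in E4bp4-LKO livers and 3.96 to 5.98 CPM in WT livers. B and plasma cell markers had 1 of 6 higher in edgeR (Jchain), against 4.36% of all genes. Its call was lost without WT 165 or 166 or E4bp4-LKO 144 (adjusted p up to 0.0697), and without WT 164 and 165 (adjusted p = 0.0854). Estimates in this list were above 0 for 4 of 6 and below 0 for 2, with a median of 0.08. Its sums were 7.05 to 17.4 CPM in E4bp4-LKO livers and 4.74 to 8.16 CPM in WT livers. No tested marker of any list was at 0 in all libraries.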

How the data were processed

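Whole-liver RNA was sequenced from 4 E4bp4-LKO and 4 WT mice. Per the labels, mRNA was enriched with oligo-dT or by ribosomal RNA depletion before random priming. HISAT2 is named in the submitters' processing notes; for its version, the quantification program, strand setting, genome build and annotation, the entry is "not given in the sources used here". Deposited tables hold, per gene, the authors' expected counts (not normalized, 25.92% to 27.3% of entries fractional) and the authors' FPKM, which divides by effective length and library total. A gene not listed in a library's table was read as 0. No pair of libraries held copies of the same counts (lowest chi-square per degree of freedom 7.52).

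Expected counts were rounded and fitted in R 4.3.3 with edgeR 4.0.16: filterByExpr (minimum count 10, minimum total 15), TMM, robust glmQLFit and two-sided glmQLFTest, with Benjamini-Hochberg adjustment over 13244 genes and a threshold of 0.05. Log2 fold changes are E4bp4-LKO over WT. The SE is the absolute log2 fold change divided by the square root of F. For ratios of FPKM the exact permutation test (two-sided) was used. Principal components and distances between genes used log2 CPM with a prior count of 2. The fit was checked on simulated counts with known changes.

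The members, gene lists and tests were chosen with earlier results of these data known. Named were all members, Nfil3, from each list up to 4 called genes with the smallest p, 10 genes that act directly on hepcidin or iron release, and the 3 genes (mean FPKM of at least 1) closest to Hamp and to Hamp2. Others are said to have been chosen after their values were seen. Alternatives were DESeq2 1.42.0, DESeq2 size factors, library totals, no filter, 5 CPM in 4 libraries, voom with quality weights and trend in limma 3.58.1 on log2(FPKM + 1), log2(FPKM + 0.1) or TPM, hepcidin copies summed, and mice left out. Promoter windows came from RefSeq (GRCm38.p6) and transcripts from GENCODE M21.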

Additional observations from a re-analysis of the deposited data

Results flagged for a closer look

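In 5 of 116 sets of 4 livers examined (a gene in a group), 1 liver stood far from the other 3, and chance gives about 1 in 20 such sets. None of the 10 iron handling genes was among them. Dcn, a stellate cell gene, was at 190.3 CPM in E4bp4-LKO liver 144, and the nearest of that group was at 229 CPM. Top2a, a gene of dividing cells, was at 13.9 CPM in WT liver 164, with the nearest WT liver at 7.56 CPM. Hmox1 was at 54.6 CPM in WT liver 167, with the nearest WT liver at 63.5 CPM. Smad6 was at 11.5 CPM in WT liver 164, with the nearest WT liver at 9.4 CPM. Il6 was at 0.0578 CPM in WT liver 164, with the nearest WT liver at 0.0351 CPM, and all of its values were below the floor of 3 counts.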

How the results depend on the processing

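No paired analysis was possible because the groups share no mouse numbers. The hepcidin copies were the only ones summed, since the tables list no ferritin pseudogenes. For the members, 147 of 190 recomputed values kept their direction and side of the threshold, 28 passed where the reported value did not, and 15 changed sign. Il6, at 0 to 2 counts, and Meltf in E4bp4-LKO liver 179, at 2 counts, were below the floor of 3.

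The number of members called was 0 as reported, 3 with DESeq2, 4 on library totals, on either FPKM pseudocount, without an FPKM filter and on TPM, 1 without WT 164 and 165, and 0 to 1 without each mouse. Genes called overall numbered 1436, but 2233 with DESeq2, 2199 on TPM, 387 without WT 164 and 165, and 506 to 1539 without each mouse. The summed hepcidin copies (1.13) passed with DESeq2 (1.13), and ranged from 0.85 to 1.33 without each mouse. The BMP and SMAD list had 1 call, 2 on library totals, either FPKM pseudocount and TPM, 0 without WT 164 and 165, and 0 to 1 without each mouse. The interleukin 6 list had 2 calls and 1 without WT 164 and 165, and the uptake, storage and sensing list 6 and 3 (5 to 8 without each mouse). Heme scavenging had 0 calls, but 4 with DESeq2, either FPKM pseudocount and TPM, 3 on library totals and without an FPKM filter, 2 with voom, 1 at 5 CPM, and 0 to 2 without each mouse. Heme synthesis had 1 call, but 2 with DESeq2, library totals, 5 CPM, voom, either FPKM pseudocount and without WT 164 and 165, and 1 to 2 without each mouse, and its 1 call was lower, not higher, on TPM and without an FPKM filter. Iron-sulfur assembly had 0 calls, 1 on library totals, either FPKM pseudocount and without an FPKM filter, and 2 on TPM.

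Signs turned in these cases, and apart from the shift of the median given above the cause was not tested. Tfrc became 0.03 with voom, 0.17 without WT 164 and 165, and -0.16 to 0.11 without each mouse (0.08 without WT 164, 0.00 without WT 165, 0.11 without E4bp4-LKO 145). On library totals Slc40a1 became -0.03, Slc39a14 -0.10, Bmp6 -0.03, Hfe2 -0.11, Id1 -0.09 and Socs3 -0.00. On log2(FPKM + 1), filtered or not, they were -0.04, -0.10, -0.01, -0.12, -0.23 and -0.09, with a pseudocount of 0.1 -0.04, -0.10, -0.01, -0.13, -0.26 and -0.16, and on TPM -0.08, -0.14, -0.04, -0.17, -0.29 and -0.16, where Bmp2 was -0.01. Hfe2 became -0.02 with voom, -0.07 without WT 164 and 165, and without each mouse ranged from -0.02 (without E4bp4-LKO 143) to 0.16, with -0.01 without E4bp4-LKO 145. Without each mouse Id1 ranged from -0.41 (without E4bp4-LKO 145) to 0.31, Socs3 from -0.13 (without E4bp4-LKO 144; -0.01 without E4bp4-LKO 145) to 0.37, and Hmox1 from -0.30 to 0.01 (without E4bp4-LKO 144).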
